A study of Mus musculus with 24 samples.

Results

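The synaptic vesicle release machinery was examined as a set of 79 gene symbols in the count table of a single-nucleus RNA sequencing (snRNA-seq) study of the mouse ventral hippocampus. Members were the symbols of the synaptotagmins (Syt), synapsins 1 to 3 (Syn), SNAP proteins (Snap23, Snap25, Snap29, Snap47 and Snap91), VAMPs (Vamp), syntaxins (Stx), syntaxin-binding proteins (Stxbp), RIMs (Rims), Munc13 proteins (Unc13), complexins (Cplx), SV2 proteins (Sv2), Rab3 GTPases, Doc2 proteins, bassoon (Bsn) and piccolo (Pclo), picked by name alone from 33902 symbols. After a filter on low counts over all columns 77 of them remained. Cplx4 and Syt8 did not pass it. The nuclei came from adult male mice of 2 inbred strains, C57BL/6J (B6) and DBA/2J (labelled DBA, here D2), at 10 to 16 weeks of age. Each strain had 2 libraries, and each library pooled tissue from about 2 animals, so that single animals could not be told apart. No treatment, transgene or engineered deletion was named for either strain. Nuclei for snRNA-seq were sorted by NeuN into a fixed mixture of neuronal and non-neuronal nuclei, which sets the shares of cell types. Counts were summed for each library within 17 cell types that the authors named by clustering: 8 excitatory (Exc), 3 inhibitory (Inh), 1 of Cajal-Retzius cells (CR-CR) and 5 non-neuronal (NN) types. Single-nucleus ATAC sequencing (snATAC-seq), which reads open chromatin, was available for 2 further libraries of each strain.

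Transmitter is released when a synaptic vesicle fuses with the presynaptic membrane. A VAMP on the vesicle zips together with a syntaxin and SNAP-25 on the target membrane, and the Munc13 proteins guide this assembly. Complexins clamp and assist the assembled complex, and synaptotagmins sense the calcium that triggers fusion. RIMs, bassoon and piccolo build the active zone where vesicles dock, Rab3 proteins tether vesicles to it, synapsins hold vesicles in reserve, and SV2 proteins are glycoproteins of the vesicle membrane. Several relatives with these names, among them Vamp8, Stx4a, Stx7 and Snap23, serve membrane traffic outside the synapse.

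The promoters of the 3 SV2 genes and of Unc13a are shown because results below turn on them: the 3 SV2 paralogs were distributed across cell types in different ways, and the promoter peak of Unc13a was the 1 member peak that was higher in D2. The sequences are those of RefSeq on GRCm38.p6, run 5′ to 3′ along the strand of the gene over 300 bases around the RefSeq start, and capitals mark the GC box, GGGCGG or its complement CCGCCC.

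Sv2a (chr3:96180977-96181276, plus strand): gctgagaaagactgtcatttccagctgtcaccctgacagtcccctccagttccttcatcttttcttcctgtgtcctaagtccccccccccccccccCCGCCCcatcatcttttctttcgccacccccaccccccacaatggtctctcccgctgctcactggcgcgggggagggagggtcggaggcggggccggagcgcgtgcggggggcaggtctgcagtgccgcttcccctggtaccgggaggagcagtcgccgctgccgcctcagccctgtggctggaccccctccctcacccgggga
Sv2b (chr7:75309213-75309512, minus strand): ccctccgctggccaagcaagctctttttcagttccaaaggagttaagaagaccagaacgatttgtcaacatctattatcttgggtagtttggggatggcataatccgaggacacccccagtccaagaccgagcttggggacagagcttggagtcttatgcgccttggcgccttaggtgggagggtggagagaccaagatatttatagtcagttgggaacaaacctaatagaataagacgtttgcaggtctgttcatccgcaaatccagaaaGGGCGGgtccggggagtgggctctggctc
Sv2c (chr13:96132528-96132827, minus strand): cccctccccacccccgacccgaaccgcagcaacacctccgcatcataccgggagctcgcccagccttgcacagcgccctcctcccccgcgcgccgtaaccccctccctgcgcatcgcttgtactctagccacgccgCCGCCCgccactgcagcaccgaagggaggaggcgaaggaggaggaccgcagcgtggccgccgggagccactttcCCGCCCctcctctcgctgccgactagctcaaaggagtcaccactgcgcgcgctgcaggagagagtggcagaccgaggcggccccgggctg
Unc13a (chr8:71671708-71672007, minus strand): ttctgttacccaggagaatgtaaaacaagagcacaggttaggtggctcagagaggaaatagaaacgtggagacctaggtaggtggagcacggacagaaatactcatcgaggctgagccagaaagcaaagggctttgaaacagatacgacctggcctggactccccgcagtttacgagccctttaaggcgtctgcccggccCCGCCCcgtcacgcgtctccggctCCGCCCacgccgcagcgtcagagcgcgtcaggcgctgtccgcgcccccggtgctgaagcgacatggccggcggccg

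The Sv2c promoter held 32 CpG dinucleotides, against 17 in that of Sv2a and 10 in that of Sv2b, and its GC content was 71.7%, against 51.3% in that of Sv2b. The GC box occurred 2 times in the promoters of Sv2c and Unc13a and 1 time in each of the other SV2 promoters. Searched on both strands, it was present in 50 of the 76 promoters listed for 60 members (65.8%), against 35.7% of all 32851 RefSeq promoters of this length. The cyclic AMP response element TGACGTCA was present in 2 of the 76 (2.63%), against 1.79% of all, and its core TGACG, which lies within it, in 17 (22.4%), against 20.8%. These matches describe letters in the window and not bound sites. The windows of the SV2 genes lay wholly within a snATAC-seq peak, and 156 of the 300 bases of the Unc13a window did.

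Each column of the RNA table held between 139713 (CR-CR) and 11352265 (Exc-DG) counts. Values are given as CPM, counts scaled to a common column total and by TMM, so that a value is a share of the RNA of that cell type and not an amount per nucleus. Levels are compared for 1 gene across cell types or strains and never between genes, since the counts are not per length. Most marker genes followed the names of the columns: Prox1 was highest in Exc-DG at 305 CPM, Sst in Inh-MGE at 1353 CPM, Vip in Inh-CGE at 587 CPM, Trp73 in CR-CR at 208 CPM, and Mog (1170.2 CPM), Pdgfra (1048 CPM), Csf1r (932 CPM) and Col1a2 (207 CPM) in NN-ODC, NN-OPC, NN-MGC and NN-VLMC. The D2 columns of CR-CR stood apart in the 4 Cajal-Retzius markers read, each of them lower there than in B6 and lowest in D2 library 3. Trp73 stood at 297 and 325 CPM in B6 and 166 and 44.4 CPM in D2, Reln at 3404 and 3906 CPM in B6 and 2015 and 884 CPM in D2, Ndnf at 882 and 1047 CPM in B6 and 539 and 199.8 CPM in D2 and Lhx5 at 38.0 and 20.2 CPM in B6 and 15.5 and 0 CPM in D2. The medial ganglionic eminence gene Lhx6 was an exception among the types, with 79.6 CPM in Inh-Lamp5 and 68.1 CPM in Inh-MGE. Slc17a7, the vesicular glutamate transporter of excitatory neurons, stood at 41.0 to 65.4 CPM in the non-neuronal columns and at 433 CPM in Exc-CA1-Galntl6.

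More members of the release machinery were higher in neurons than in non-neuronal cells. In each of the 4 libraries, 32 of the 77 members (41.6%) were at least 2-fold higher in the mean of the 12 neuronal types than in that of the 5 non-neuronal types, against 11.2% of all 21050 genes kept, and 6 members (7.79%) were at least 2-fold higher in the non-neuronal types, against 14.9% of all genes. The median log2 ratio was 0.89 over the members and -0.05 over all genes. The cell types had been clustered from the same RNA, so these counts are a description and were not tested. With CR-CR left out of the neuronal mean, a choice made after seeing the data, 35 members were higher in neurons and 5 in non-neuronal types.

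Roles differed in this respect. The role of calcium sensors holds every Syt and Doc2 symbol, whether or not its product binds calcium. Among the calcium sensors 12 of 19 were past the limit in neurons, among the active zone and priming proteins 8 of 10, and among the vesicle proteins 6 of 10. Of the syntaxins, 1 of 15 was, Stx3, and of the 8 VAMPs none was. Syt1, the fast calcium sensor of most forebrain synapses, had the largest ratio, 2847 against 179.7 CPM (B6 3.73 and 3.74, D2 4.33 and 4.34, log2 scale). It was followed by Doc2b, a high-affinity calcium sensor, at 22.6 against 2.81 CPM (median log2 ratio 3.26), Stxbp5l (tomosyn-2, an inhibitor of SNARE assembly) at 535 against 65.0 CPM (3.12), Rims4 at 29.5 against 3.98 CPM (3.10) and the priming factor Unc13a at 127 against 16.6 CPM (3.03). Snap25 stood at 894 against 139.5 CPM. The core vesicle SNARE Vamp2 did not follow them, with 34.0 against 44.5 CPM in neuronal and non-neuronal types (median log2 ratio -0.42).

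The 6 members higher in non-neuronal types were mostly those of general membrane traffic. Vamp5 was near 0 in the neuronal columns (0.265 against 28.5 CPM, B6 -6.32 and -7.99, D2 -6.47 and -6.72), and in NN-VLMC, the vascular and leptomeningeal cells, it reached 87.8 ± 27.8 CPM (SD, n = 4 libraries). Vamp8, of endosomal and secretory fusion, stood at 26.9 ± 4.37 CPM in NN-VLMC and 25.2 ± 12.2 CPM in microglia, and its mean over the neuronal types was 0.499 CPM. Stxbp3 (Munc18c), the partner of Stx4a at the plasma membrane of non-neuronal cells, was highest in oligodendrocytes, NN-ODC, at 232 CPM, and so was Stx4a at 61.3 ± 6.24 CPM. Unc13c (Munc13-3) and Unc13d (Munc13-4) were the other 2, with 43.1 against 153 CPM and 1.08 against 2.98 CPM in neuronal and non-neuronal types. For Unc13c this rested on NN-OPC, the oligodendrocyte precursors, at 432 ± 78.2 CPM, NN-VLMC at 212 CPM and astrocytes, NN-Astro, at 114 CPM, while NN-ODC held 3.04 CPM.

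Between excitatory and inhibitory neurons the set was nearly balanced, and paralogs of 1 family lay on opposite sides. In every library 6 of 77 members (7.79%) were at least 2-fold higher in the 8 excitatory types, against 6.28% of all genes, and 6 (7.79%) were at least 2-fold higher in the 3 inhibitory types, against 4.61%. Sv2b and Sv2c were split in this way: Sv2b stood at 365 against 16.0 CPM in excitatory and inhibitory types, with log2 ratios of B6 4.61 and 4.47, D2 4.36 and 4.62, and Sv2c at 43.6 against 112 CPM, with log2 ratios of B6 -1.88 and -1.39, D2 -1.16 and -1.31. Sv2a, whose product binds levetiracetam, lay between them at 99.8 against 177 CPM (median log2 ratio -0.83) and did not pass the limit. The inhibitory mean of Sv2c rested mainly on Inh-Lamp5, with means of 215 CPM in B6 and 373 CPM in D2, scaled within the type. On the same scale Inh-MGE stood at 5.57 and 51.2 CPM, Inh-CGE at 4.38 and 40.0 CPM and Exc-DG at 100 and 78.0 CPM.

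The excitatory side otherwise held members of the calcium sensor role and a priming factor. Doc2b stood at 31.9 against 4.17 CPM, Syt10 at 26.2 against 5.01 CPM, Syt17 at 94.4 against 26.9 CPM and Syt7, a slow sensor linked to facilitation and asynchronous release, at 193 against 59.4 CPM. The last of them, Unc13b (Munc13-2), stood at 181 against 76.3 CPM, and its paralog Unc13a did not pass the limit (137 against 121 CPM). On the inhibitory side Syt6 stood at 1.62 against 37.1 CPM, Rab3b at 19.5 against 78.4 CPM, Rab3c at 233 against 534 CPM, Rims3, a short RIM, at 10.0 against 25.2 CPM and Cplx3 at 0.920 against 3.52 CPM. Of these, Syt6 and Cplx3 each rested mainly on 1 inhibitory type. Syt6 was at 109 CPM in Inh-CGE, and Cplx3 at 9.62 CPM in Inh-Lamp5, 0.251 CPM in Inh-MGE and 0.678 CPM in Inh-CGE. Rab3a, the most studied Rab3 of synapses, stood at 21.3 against 32.7 CPM (median log2 ratio -0.61). Just inside the limit was Rab3c, whose ratio nearest to 0 was -1.07, and just outside it were Syt5 (0.99) and Stxbp5l (0.89), both of them on the excitatory side. The plot of log2 ratios by library shows that those of Syt10, Syt17, Doc2b, Unc13b, Cplx3, Sv2c and Rims3 were further from 0 in both B6 libraries than in both D2 libraries, and that the ratios of Sv2b, Syt7 and Rab3b lay close together.

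**Figure D1:**
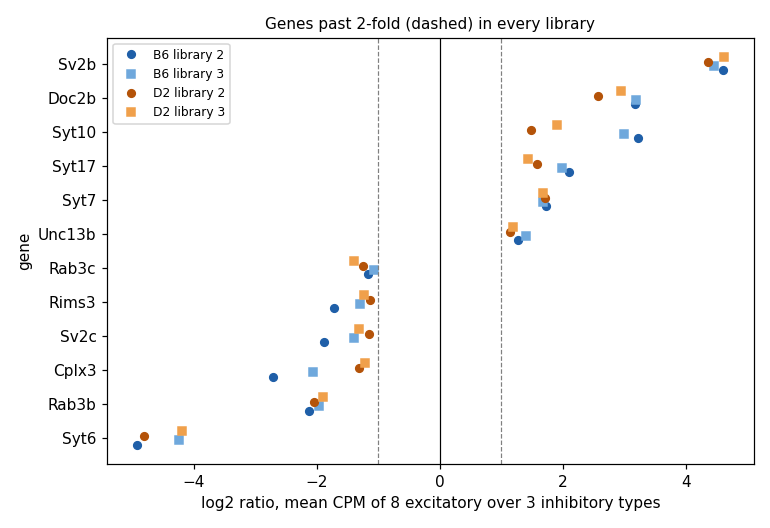
Log2 ratio of the mean CPM over 8 excitatory types to that over 3 inhibitory types (horizontal axis) for the 12 genes past 2-fold in every library, 1 point per library and colours for strain. Sv2b lies near 4.54 and Syt6 near -4.53, and the B6 points of Syt10 lie to the right of its D2 points.

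Single cell types carried members of their own. A specificity index, tau, which is 0 for even levels over the types and 1 for a gene seen in 1 type, ran from 0.198 to 0.974 with a median of 0.556 over the 67 members that reached 20 CPM in some type. For 22 of them every library of the highest type lay above every library of the next. The heat map of levels by type shows a block of calcium sensors, active zone proteins and vesicle proteins with low values in the 5 non-neuronal columns and scattered genes with 1 bright type.

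**Figure D2:**
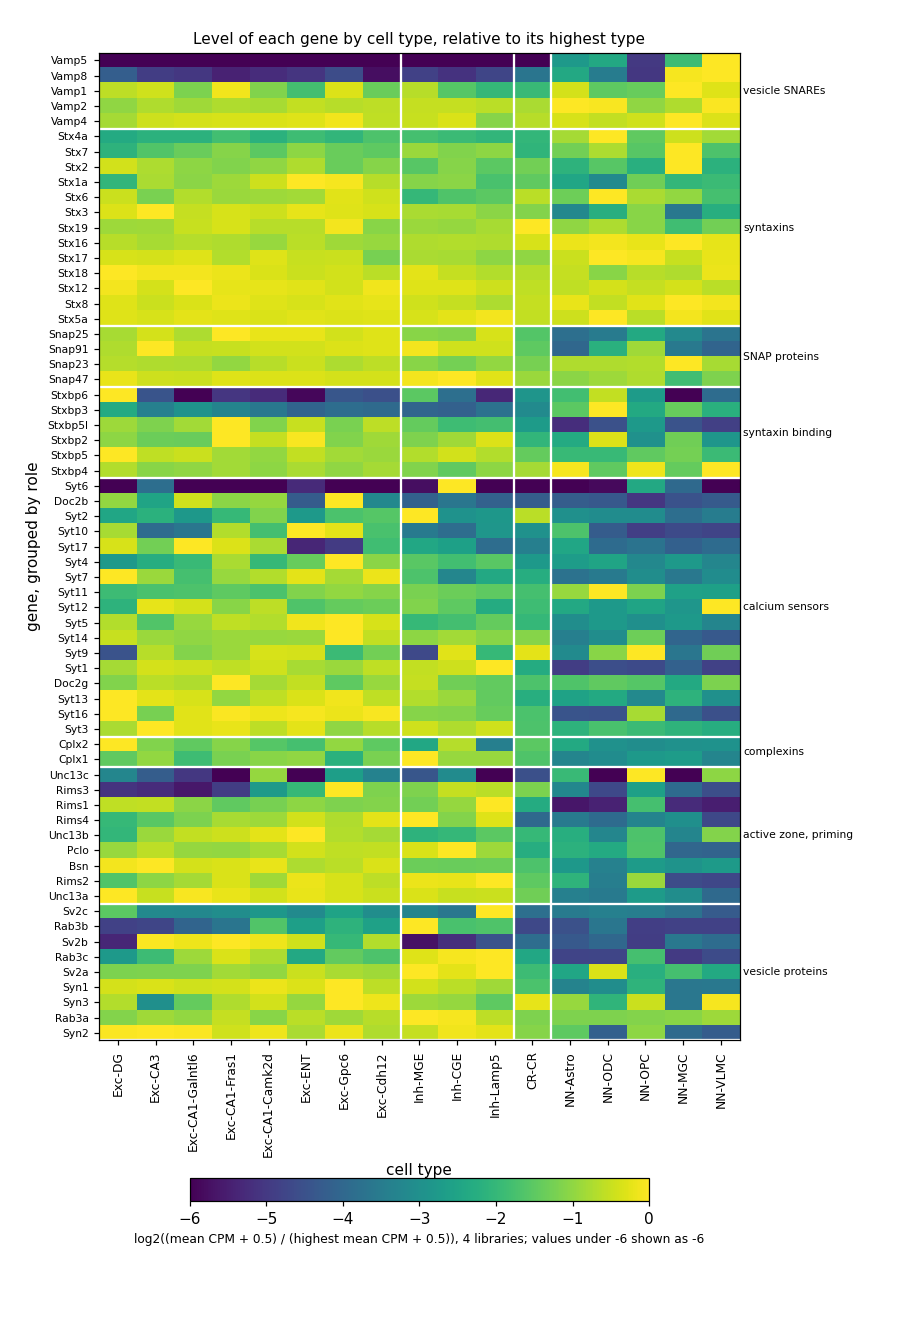
Mean CPM over 4 libraries of members that reach 20 CPM in some type, in 17 cell types, drawn as the log2 ratio to the highest type of the gene (0.5 CPM added to both, colour scale, values under -6 drawn as -6) and grouped by role. Syt6 is bright in Inh-CGE and dark nearly everywhere else, while the row of Stx5a is even.

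The syntaxins ran from even to uneven levels over the types. Stx5a, of the Golgi, had the lowest index of all (tau 0.198), from 58.1 CPM in NN-OPC to 90.2 CPM in NN-ODC. Stx4a and Stx7 had the highest indices among the syntaxins that reached 20 CPM (tau 0.677 and 0.604), and Stx7, of late endosomes, was highest in microglia at 115 ± 24.8 CPM. Stx1a, a neuronal syntaxin of the plasma membrane, ranged from 8.58 CPM in NN-ODC to 79.1 CPM in Exc-ENT. Vamp1 and Vamp2 did not have their highest mean in a neuron: Vamp2 was at 55.1 ± 4.23 CPM in NN-Astro and at 27.3 ± 3.08 CPM in Exc-DG. Vamp1 was at 39.6 CPM in NN-MGC and 36.4 CPM in Exc-CA1-Fras1, and the libraries of these types overlapped. Vamp4, of endosomes and the trans-Golgi, was the least specific VAMP, from 35.6 CPM in Inh-Lamp5 to 77.0 CPM in NN-MGC. Reads of Vamp3 cannot be told from those of Camta1, which contains it on the same strand, and it is not described further.

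Snap25, the target SNARE of synapses, was highest in Exc-CA1-Fras1 at 1293 ± 126 CPM, and Snap91, an adaptor of clathrin coats, in Exc-CA3 at 334 ± 35.2 CPM. Snap47 was highest in Inh-CGE at 80.6 CPM. Stxbp6 (amisyn), an inhibitor of SNARE assembly, had 2 separate peaks, 629 ± 23.4 CPM in Exc-DG and 432 ± 106 CPM in NN-ODC, and 7.42 CPM in Exc-CA1-Galntl6. Stxbp5l was highest in Exc-CA1-Fras1 at 1088 ± 94.0 CPM.

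Among the calcium sensors Syt6 was the most specific (tau 0.974). It stood at 109 ± 8.59 CPM in Inh-CGE, the caudal ganglionic eminence interneurons, and next at 20.4 ± 1.81 CPM in NN-OPC. Syt2, the fast sensor of parvalbumin basket cells in the textbook account, was highest in Inh-MGE at 42.3 ± 8.42 CPM, with CR-CR next at 27.6 ± 30.4 CPM and overlapping it. Syt1 was highest in Inh-Lamp5 at 4349.8 ± 91.8 CPM, and Syt7 in Exc-DG at 294 ± 25.2 CPM. Syt9 was at 0.932 CPM in Exc-DG and 0.740 CPM in Inh-MGE but at 31.0 ± 6.51 CPM in NN-OPC. Syt11, which binds no calcium, was highest in NN-ODC at 406 ± 24.1 CPM. Syt17 separated the pyramidal cells of CA1, with 193 ± 41.2 CPM in Exc-CA1-Galntl6, from Exc-ENT, with 4.19 ± 2.62 CPM, and Doc2b likewise held 71.8 ± 12.3 CPM in Exc-Gpc6 and 3.27 ± 0.510 CPM in Exc-ENT. Syt3 was the least specific sensor (tau 0.473), with 5.26 CPM in NN-VLMC and 27.2 CPM in Exc-CA3.

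The complexins divided the neurons. Cplx2 was highest in Exc-DG at 163 ± 17.2 CPM and lowest of all types in Inh-Lamp5 at 14.9 ± 4.87 CPM, while Cplx1 was highest in Inh-MGE at 58.3 ± 5.82 CPM. Cplx3, known from ribbon synapses, stayed under 20 CPM, with 9.62 ± 5.29 CPM in Inh-Lamp5 and 5.41 ± 1.88 CPM in Exc-ENT. In the active zone Rims1 and Rims2 were highest in Inh-Lamp5, at 2395 and 1147 CPM, and Rims1 also stood at 706 ± 65.9 CPM in NN-OPC, against 47.5 CPM in NN-Astro. Rims3 was at 42.4 ± 4.06 CPM in Exc-Gpc6 and at 0.374 CPM in Exc-CA1-Galntl6. Unc13c, after NN-OPC, was highest in Exc-CA1-Camk2d at 224 ± 85.9 CPM, where 1 library, B6 library 2, lay at 122 CPM and another, B6 library 3, at 325 CPM.

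Of the vesicle proteins Sv2b was at 538 ± 70.3 CPM in Exc-CA1-Fras1 and 523 ± 27.3 CPM in Exc-CA3, and the exception among principal cells was Exc-DG with 12.6 ± 3.19 CPM, a level like that of Inh-MGE (9.84 ± 3.70 CPM). Sv2c was highest in Inh-Lamp5 at 284 ± 86.8 CPM and next in Exc-DG at 99.0 ± 16.0 CPM. Rab3b was highest in Inh-MGE at 145 ± 13.8 CPM and next in Exc-CA1-Camk2d at 46.5 ± 8.75 CPM. Syn2 was the least specific of the group (tau 0.398) and highest in Exc-CA3 at 801 CPM, and Syn1 and Syn3 were highest in Exc-Gpc6 at 180.4 and 248 CPM.

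Between the strains more pairs of a member and a cell type were lower than higher in D2. D2 was compared with B6 within each cell type, 2 libraries against 2, by edgeR's quasi-likelihood test with Benjamini-Hochberg adjustment over all genes of the type, and a pair of a gene and a cell type was called at an adjusted p under 0.05. Of 1072 tested member pairs 68 (6.34%) were higher in D2, against 7.26% of all pairs of genes with counts in both strains, and 134 (12.5%) were lower, against 9.40%. The 11 lower pairs of Vamp7 come from a gene with no D2 count, and without them 123 were lower. The D2 libraries lay on 1 side of the B6 libraries in 201 of the 202 called pairs. In 79 called pairs the change was under 0.5 and in 65 at least 1 on the log2 scale, and 27 of the 202 belonged to Sv2c and Vamp7. Of the called pairs 80 held in all 4 fits that left out 1 library. Fold changes are D2 over B6 on the log2 scale with their standard errors, and the p-values measure the spread between these libraries.

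Calls were made for 50 of the 76 members tested in some type, and 11 of them were called in both directions in different types. The same count over all genes was not made, so it is not read as a result about the members. The 26 members with no call included Stx1a, Sv2a, Rab3a and Rab3b. In the excitatory types 47 of 549 member pairs were higher (8.56%, against 9.05% of the pairs there of genes with counts in both strains) and 81 lower (14.8%, against 11.5%). In the inhibitory types 8 of 194 member pairs were higher (4.12%, against 4.79% of such pairs) and 10 lower (5.15%, against 6.55%). In the non-neuronal types 12 of 284 member pairs were higher (4.23%, against 5.99% of such pairs) and 43 lower (15.1%, against 7.94%). The lower member pairs of these 3 classes include 6, 2 and 3 of Vamp7, which has no D2 count. The share of pairs called was 28.9% for vesicle proteins, 28.1% for complexins, 25.4% for calcium sensors (11 higher and 49 lower of 236), 20.6% for active zone and priming proteins (7 and 21 of 136), 16.7% for VAMPs (5.06% without Vamp7, 4 of 79), 14.0% for syntaxin-binding proteins, 5 higher and 4 lower of 82 for SNAP proteins, and 9.13% for syntaxins. Beside these, 7.26% of all pairs of genes with counts in both strains were called higher and 9.40% lower. Most calls of vesicle proteins were of Sv2c (15 higher and 1 lower), Rab3c (13 lower) and Sv2b (9 lower).

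**Figure D3:**
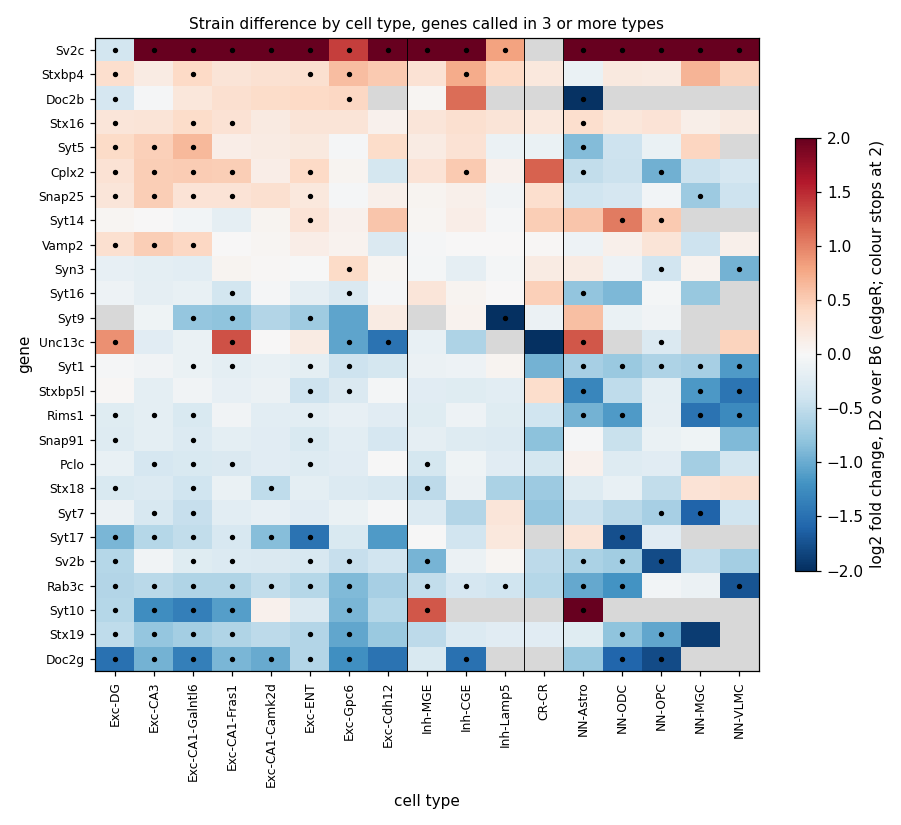
Log2 fold change of D2 over B6 (colour, stopping at 2) in each cell type for the members called in 3 or more types, without Vamp7. Black points mark calls at an adjusted p under 0.05 and grey cells were not tested. The row of Sv2c is red in 15 types, blue in Exc-DG and grey in CR-CR, and the row of Rab3c is blue in all of them.

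Sv2c had the largest fold changes, apart from Vamp7 with no D2 count, and was called in the most cell types. It lies at chr13:95954594-96132577 on the minus strand (GRCm38), a gene of 178 kb counted over introns and exons. It was higher in D2 in 15 of the 16 types tested and lower in Exc-DG. In Exc-CA3 it stood at 2.41 and 2.40 CPM in B6 and 53.4 and 55.9 CPM in D2 (log2 fold change 4.49 ± 0.18, adjusted p = 4.93e-12), and in Exc-CA1-Galntl6 at 2.00 and 3.01 CPM in B6 and 57.5 and 49.2 CPM in D2 (log2 fold change 4.42 ± 0.19, adjusted p = 3.32e-11). The strains did not overlap in either type.

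Where B6 had little Sv2c, the D2 level lay in a narrow range. Over the 14 types other than Exc-DG and Inh-Lamp5 the D2 mean ran from 39.1 to 66.7 CPM and the B6 mean from 1.12 to 26.0 CPM, so that D2 exceeded B6 by 34.8 to 56.2 CPM. This held for glia as for neurons: NN-Astro stood at 5.06 and 6.75 CPM in B6 and 43.3 and 38.2 CPM in D2 (log2 fold change 2.78 ± 0.23, adjusted p = 1.36e-12) and NN-ODC at 2.55 and 4.51 CPM in B6 and 44.3 and 50.0 CPM in D2 (log2 fold change 3.66 ± 0.32, adjusted p = 1.92e-09). The 2 types in which B6 had most Sv2c behaved otherwise. Inh-Lamp5 rose from 243 and 187 CPM to 358 and 388 CPM (log2 fold change 0.80 ± 0.14, adjusted p = 9.84e-05), while Exc-DG stood at 97.8 and 103 CPM in B6 and 77.3 and 78.7 CPM in D2 (log2 fold change -0.36 ± 0.08, adjusted p = 0.00192). The calls held in the fits that left out 1 library except in Inh-CGE (adjusted p = 0.237 with D2 library 2 left out and 0.284 with D2 library 3 left out) and NN-MGC (0.166 with D2 library 3 left out), and in NN-VLMC, where 1 such fit did not keep the gene. No symbol with counts in D2 alone overlapped Sv2c on its strand.

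**Figure D4:**
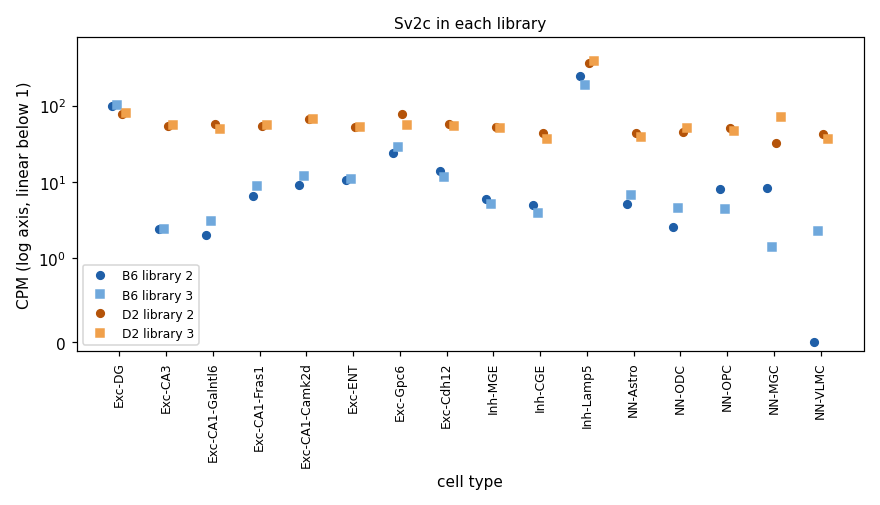
CPM of Sv2c in each library (log axis, linear below 1) in the 16 cell types tested, blue for B6 and orange for D2. The D2 points of the 14 types other than Exc-DG and Inh-Lamp5 lie between 31.9 and 78.0 CPM, above the B6 points of the same type, and the order is reversed in Exc-DG.

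The remaining calls among SV2 and Rab3 proteins were all lower in D2. Rab3c, a vesicle GTPase, was lower in D2 in all 17 types by its fold change and called in 13 of them (median log2 fold change -0.57). In Exc-Gpc6 it stood at 234 and 282 CPM in B6 and 139.6 and 143 CPM in D2 (log2 fold change -0.88 ± 0.12, adjusted p = 1.65e-07), and in Exc-CA1-Fras1 at 493 and 497 CPM in B6 and 337 and 316 CPM in D2 (log2 fold change -0.60 ± 0.08, adjusted p = 1.69e-06). Each of these calls held without any 1 library. Among interneurons Inh-MGE stood at 539 and 556 CPM in B6 and 374 and 408 CPM in D2 (log2 fold change -0.49 ± 0.10, adjusted p = 0.002), and the calls in Inh-CGE and Inh-Lamp5 were near the threshold (adjusted p = 0.0475 and 0.0221). Left-out libraries ended the call in Inh-CGE (adjusted p = 0.11 with B6 library 2 left out, 0.26 with B6 library 3 left out, 0.258 with D2 library 2 left out and 0.296 with D2 library 3 left out) and in Inh-Lamp5 (0.0577 with B6 library 2 left out, 0.079 with B6 library 3 left out and 0.202 with D2 library 2 left out). Sv2b was called lower in 9 types. In Exc-ENT it stood at 421 and 443 CPM in B6 and 338 and 358 CPM in D2 (log2 fold change -0.31 ± 0.08, adjusted p = 0.00259), which held, and in Exc-DG, where it is low in both strains, at 13.9 and 13.4 CPM in B6 and 10.1 and 8.22 CPM in D2 (log2 fold change -0.57 ± 0.16, adjusted p = 0.0134), which did not (adjusted p = 0.117 with D2 library 3 left out). Sv2a, Rab3a, Rab3b and Rab3d had no call. Synapsins had few. Syn3 was higher in Exc-Gpc6 at 190.5 and 214 against 258 and 269.9 CPM (log2 fold change 0.38 ± 0.11, adjusted p = 0.00826), a call lost at adjusted p = 0.0781 with B6 library 2 left out and 0.0837 with D2 library 3 left out. It was lower in NN-OPC at 213 and 212 against 133 and 190.1 CPM (log2 fold change -0.39 ± 0.13, adjusted p = 0.0195, 0.06 with B6 library 2 left out, 0.0799 with B6 library 3 left out and 0.638 with D2 library 2 left out) and in NN-VLMC at 573 and 307 against 211 and 235 CPM (log2 fold change -0.95 ± 0.25, adjusted p = 0.0112, 0.54 with B6 library 2 left out and 0.104 with D2 library 2 left out).

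The calcium sensors, the role of all Syt and Doc2 symbols, had the most lower calls (49) and also the most tested pairs (236). Of the 49, 10 were of Doc2g, which is taken up below. Syt17 was lower in 7 types and most clearly in Exc-DG, where it stood at 181 and 172 CPM in B6 and 95.9 and 90.6 CPM in D2 (log2 fold change -0.92 ± 0.08, adjusted p = 2.31e-07), Exc-CA3 (87.5 and 84.7 against 55.8 and 61.0 CPM, B6 against D2, log2 fold change -0.56 ± 0.10, adjusted p = 0.000233) and Exc-CA1-Galntl6 (205 and 199 against 142 and 145 CPM, log2 fold change -0.50 ± 0.07, adjusted p = 2.17e-05). The strains did not overlap in any of these, and the calls held without each library. Syt9 was lower in Exc-ENT at 28.5 and 28.4 CPM in B6 and 16.5 and 18.4 CPM in D2 (log2 fold change -0.71 ± 0.18, adjusted p = 0.0018) and in 2 CA1 types, which held, and in Inh-Lamp5, at 13.7 and 11.9 CPM in B6 and 1.23 and 4.03 CPM in D2 (log2 fold change -2.25 ± 0.57, adjusted p = 0.00657), which was lost at adjusted p = 0.187 with B6 library 3 left out, 0.383 with D2 library 2 left out and 0.112 with D2 library 3 left out. Syt1 was lower in 4 excitatory types (log2 fold changes from -0.42 to -0.13), and in Exc-Gpc6 stood at 2340.5 and 2618 CPM in B6 and 1846 and 1869 CPM in D2 (log2 fold change -0.42 ± 0.09, adjusted p = 0.000336). Syt7 fell in Exc-CA1-Galntl6 from 85.1 and 94.7 CPM to 68.4 and 61.9 CPM (log2 fold change -0.46 ± 0.09, adjusted p = 0.000794).

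Syt10, a sensor known for exocytosis of growth factor vesicles in olfactory neurons, moved both ways. It was lower in 5 excitatory types, among them Exc-CA1-Fras1 with 43.3 and 40.6 CPM in B6 and 16.6 and 22.9 CPM in D2 (log2 fold change -1.11 ± 0.17, adjusted p = 1.21e-05) and Exc-Gpc6 with 59.3 and 54.8 CPM in B6 and 24.8 and 37.9 CPM in D2 (log2 fold change -0.92 ± 0.19, adjusted p = 0.000254, 0.0754 with D2 library 2 left out). In astrocytes it was nearly absent from B6 and present in D2, at 0.948 and 5.83 CPM in B6 and 30.4 and 28.5 CPM in D2 (log2 fold change 3.09 ± 0.32, adjusted p = 3.55e-10), and that call held without each library. In Inh-MGE it was low and higher in D2, 3.14 and 2.06 against 7.17 and 4.83 CPM (log2 fold change 1.24 ± 0.40, adjusted p = 0.0365), but not without B6 library 3 (adjusted p = 0.235), D2 library 2 (0.439) or D2 library 3 (0.0522). Syt5 was higher in Exc-DG, at 58.2 and 64.8 CPM in B6 and 79.2 and 82.0 CPM in D2 (log2 fold change 0.39 ± 0.09, adjusted p = 0.00241), and in Exc-CA1-Galntl6, at 46.1 and 47.6 CPM in B6 and 67.4 and 80.2 CPM in D2 (log2 fold change 0.65 ± 0.10, adjusted p = 7.74e-05), and both calls held. In the shallow CR-CR columns Syt2 varied between the D2 libraries, at 11.7 and 7.13 CPM in B6 and 40.5 and 109 CPM in D2 (log2 fold change 2.97 ± 0.60, adjusted p = 0.00547, 0.409 with B6 library 2 left out and 0.527 with B6 library 3 left out). Of the D2 libraries, the one with more Syt2 was library 3, which had the lowest Cajal-Retzius markers, and the part of that in the result was not tested.

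Doc2g, Syt3 and Pclo were lower in D2 beside symbols that had counts in D2 alone. Doc2g was called in 10 types, in Exc-DG at 16.1 and 11.6 CPM in B6 and 5.03 and 4.73 CPM in D2 (log2 fold change -1.49 ± 0.21, adjusted p = 4.53e-05), but Gm49405, with 838 counts in D2 and 0 in B6, overlapped 67.8% of it on its strand. Its counts over all types were 0.432 times as many in D2 as in B6, and 0.906 times once the overlapping symbol was added, against total counts of 95162296 in D2 and 110498263 in B6. For Syt3 the same ratios were 0.674 and 0.913, and for Pclo, with 8 such symbols, 0.751 and 0.846. Whether the listed symbols took reads from these genes was not tested. Vamp7, of lysosomal fusion, had 1173 counts in B6 and 0 in D2. It lies on the unplaced scaffold GL456233.1, and of the 17 symbols of such scaffolds in the table all 17 had counts in B6 and 1 had counts in D2, so no fold is given for it. Without all members that overlap a symbol with counts in D2 alone, 57 of 883 tested pairs were higher and 96 lower. The 96 include the 11 lower pairs of Vamp7. Over all genes that both strains held, 7.26% of pairs were called higher and 9.40% lower. Whether the members differed from all genes in this respect was not tested.

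Snap25, Vamp2 and Cplx2 were called higher in D2 in excitatory types. Snap25 was called higher in 5 excitatory types, and in Exc-CA3 stood at 753 and 760.1 CPM in B6 and 994 and 1127 CPM in D2 (log2 fold change 0.49 ± 0.08, adjusted p = 5.71e-05) and in Exc-CA1-Galntl6 at 622 and 644 CPM in B6 and 754 and 784 CPM in D2 (log2 fold change 0.28 ± 0.05, adjusted p = 0.000521). Both calls held. Vamp2 was higher in 3 excitatory types, among them Exc-CA3 at 23.6 and 26.8 CPM in B6 and 32.2 and 39.1 CPM in D2 (log2 fold change 0.50 ± 0.14, adjusted p = 0.0113), a call lost at adjusted p = 0.0833 with B6 library 2 left out and 0.145 with D2 library 3 left out. Cplx2 was higher in 6 neuronal types, in Exc-CA3 at 58.0 and 53.9 CPM in B6 and 78.2 and 79.8 CPM in D2 (log2 fold change 0.50 ± 0.10, adjusted p = 0.000853) and in Exc-CA1-Fras1 at 57.0 and 58.4 CPM in B6 and 80.1 and 82.2 CPM in D2 (log2 fold change 0.49 ± 0.11, adjusted p = 0.00143), which both held. Stxbp4, a binder of Stx4a, was higher in 5 types, and in Exc-DG stood at 49.5 and 47.2 CPM in B6 and 59.7 and 62.5 CPM in D2 (log2 fold change 0.34 ± 0.09, adjusted p = 0.00748, 0.0708 with D2 library 3 left out). In non-neuronal types Snap25 was called lower in 1 and Cplx2 in 2. Cplx1 was called lower in 1 excitatory type, and Cplx3, tested in 1 type, and Stx1a, a neuronal syntaxin, had no call.

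Syntaxins of other compartments moved in both directions. Stx19, which lacks a transmembrane domain, was lower in 8 types, in Exc-Gpc6 at 46.9 and 48.7 CPM in B6 and 23.1 and 23.7 CPM in D2 (log2 fold change -1.03 ± 0.20, adjusted p = 8.1e-05), and Stx18, of the endoplasmic reticulum, in 4. Stx16, of the trans-Golgi, was higher in 4 types, in Exc-CA1-Galntl6 at 93.6 and 87.6 CPM in B6 and 117 and 116 CPM in D2 (log2 fold change 0.36 ± 0.08, adjusted p = 0.00176). Each of these 2 calls held without any library. Stxbp6 was lower in D2 in oligodendrocytes, at 475 and 470.2 CPM in B6 and 329 and 314 CPM in D2 (log2 fold change -0.56 ± 0.11, adjusted p = 0.000659), which also held, and in Exc-DG, where it is highest, it was not called (539.6 and 588 against 565 and 581 CPM, log2 fold change 0.02 ± 0.07, adjusted p = 0.821).

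In the active zone Rims1 and Pclo were lower in D2 and Unc13c moved both ways. Rims1 was lower in 4 excitatory types, in Exc-DG at 1597 and 1533 CPM in B6 and 1380.3 and 1259.5 CPM in D2 (log2 fold change -0.25 ± 0.06, adjusted p = 0.00739) and in Exc-CA1-Galntl6 at 1130.4 and 1169 CPM in B6 and 968 and 901 CPM in D2 (log2 fold change -0.30 ± 0.05, adjusted p = 0.000233). Pclo was lower in 5 types (log2 fold changes from -0.35 to -0.26), with the overlapping symbols given above. Unc13c, a priming factor best known from the cerebellum, was higher in Exc-DG, 26.4 and 30.3 CPM in B6 and 56.3 and 50.6 CPM in D2 (log2 fold change 0.91 ± 0.11, adjusted p = 7.04e-06), and in astrocytes, 57.2 and 71.8 CPM in B6 and 142 and 163 CPM in D2 (log2 fold change 1.24 ± 0.12, adjusted p = 1.21e-10). It was lower in Exc-Gpc6, 84.7 and 87.9 CPM in B6 and 40.5 and 43.3 CPM in D2 (log2 fold change -1.05 ± 0.15, adjusted p = 7.35e-07), and these 3 calls held without each library. In Exc-CA1-Camk2d, its highest neuronal type, it was not called (118 and 313 against 242 and 193 CPM, log2 fold change 0.01 ± 0.30, adjusted p = 0.995). Unc13b was higher in Exc-CA1-Galntl6, 148 and 154 CPM in B6 and 179.6 and 196 CPM in D2 (log2 fold change 0.31 ± 0.07, adjusted p = 0.00295, 0.0727 with D2 library 3 left out), and Rims3 in Exc-CA1-Camk2d, 2.66 and 4.01 CPM in B6 and 10.3 and 6.15 CPM in D2 (log2 fold change 1.28 ± 0.40, adjusted p = 0.0407, 0.0666 with B6 library 2 left out, 0.432 with D2 library 2 left out and 0.1 with D2 library 3 left out).

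Syt1, Rims1 and Stxbp5l were lower in D2 in several non-neuronal columns, where the neuronal marker Camk2a was lower too. Of the 117 pairs there of members at least 2-fold higher in neurons, 28 were called lower and 2 higher (median log2 fold change -0.41), and of the 167 pairs of other members 15 were lower and 10 higher (median 0.03). Syt1 was lower in all 5 non-neuronal types, in NN-Astro at 162 and 175 CPM in B6 and 128 and 86.3 CPM in D2 (log2 fold change -0.66 ± 0.13, adjusted p = 6.1e-05, 0.0731 with D2 library 3 left out). Rims1 was lower in 4, in NN-Astro at 50.3 and 69.3 CPM in B6 and 31.3 and 30.7 CPM in D2 (log2 fold change -0.95 ± 0.16, adjusted p = 5.11e-06) and in NN-ODC at 62.8 and 76.7 CPM in B6 and 33.0 and 30.7 CPM in D2 (log2 fold change -1.14 ± 0.19, adjusted p = 5.1e-05), and Stxbp5l in 3, in NN-Astro at 43.0 and 35.6 CPM in B6 and 18.4 and 13.6 CPM in D2 (log2 fold change -1.30 ± 0.19, adjusted p = 6.64e-07). The last 3 calls held without each library.

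The excitatory marker Camk2a had log2 fold changes of -0.78 in NN-Astro (adjusted p = 5.29e-06), -1.01 in NN-ODC (0.00023) and -0.68 in NN-OPC (0.00957), by the same edgeR fits, and of -0.36 to -0.15 in the excitatory types. In NN-MGC and NN-VLMC Camk2a had -0.60 and -0.73 and was not called (adjusted p = 0.0853 and 0.154). Slc17a7 had -0.48 in NN-Astro (adjusted p = 0.00975) and -0.04 to 0.23 in the excitatory types. It was not called in NN-ODC (-0.48, adjusted p = 0.0835), NN-OPC (-0.35, 0.329), NN-MGC (-0.56, 0.182) or NN-VLMC (-0.19, 0.872). As a share of the mean excitatory level of the same library, Camk2a in NN-Astro was 12.7% and 11.6% in B6 and 9.47% and 7.83% in D2, Syt1 was 5.62% and 5.90% in B6 and 4.96% and 3.49% in D2, and Rims1 was 4.16% and 5.42% in B6 and 2.89% and 2.99% in D2. The part of neuronal RNA in the lower values of these columns was not tested. Rims1 in NN-OPC stood far above the share of Camk2a, at 58.6% and 57.7% in B6 and 54.9% and 63.8% in D2, where Camk2a was 6.46% and 6.58% in B6 and 5.52% and 4.21% in D2 and Rims1 was not called (log2 fold change -0.17, adjusted p = 0.244).

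A fit over all 68 columns, with terms for cell type, library and strain within cell type, tested whether the strain difference itself differed between classes. The columns of 1 library are not independent samples, and the p-values of this fit measure the spread of cell types within libraries. Between neuronal and non-neuronal types the strain difference differed for 13 of 77 members (16.9%), against 4.86% of all genes. For 12 of them the D2 value relative to B6 was higher in neurons, as for Rims1 (difference of log2 fold changes 0.78 ± 0.11, adjusted p = 2.58e-07), Stxbp5l (0.78 ± 0.11, adjusted p = 4.26e-07) and Syt1 (0.54 ± 0.09, adjusted p = 5.87e-06). Snap25 (0.58 ± 0.10, adjusted p = 6.38e-06) and Cplx2 (0.87 ± 0.18, adjusted p = 0.000694) had positive medians in neuronal and negative medians in non-neuronal types, and their calls were lost without B6 library 3 (adjusted p = 0.152 and 0.584). Sv2c was the 1 with the opposite sign (-1.19 ± 0.28, adjusted p = 0.00269), with a median log2 fold change of 2.65 over neuronal and 3.62 over non-neuronal types. Without B6 library 3 it was not called (0.132), and 5 members passed in that fit. With CR-CR left out of the neuronal types, a choice made after seeing the data, 15 members passed, the 13 among them. Between excitatory and inhibitory types 1 of 77 members (1.30%) passed, against 1.67% of all genes: Syt10 (-1.47 ± 0.37, adjusted p = 0.0169), with a median log2 fold change of -0.75 over excitatory types and, in Inh-MGE, the 1 inhibitory type in which it passed the filter of the test within types, 1.24. It was lost without B6 library 3 (adjusted p = 0.0581) and D2 library 2 (0.636).

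**Figure D5:**
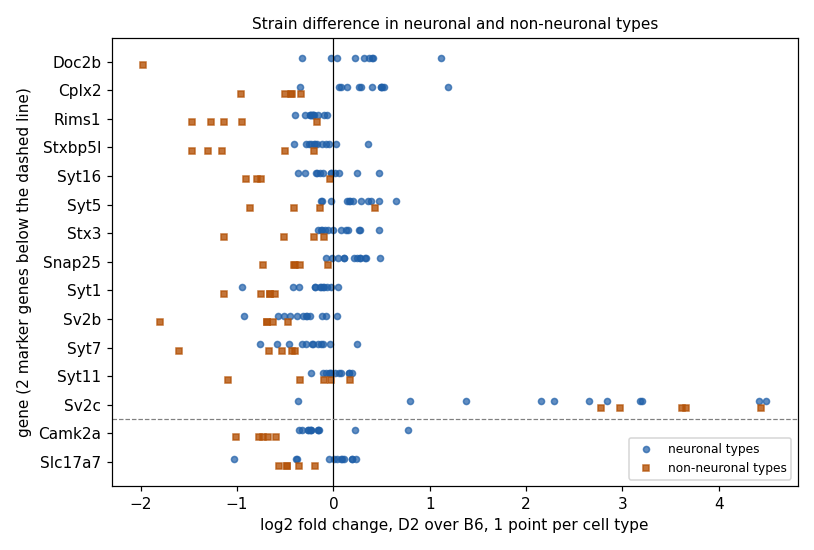
Log2 fold change of D2 over B6 (horizontal axis), 1 point per cell type, for the 13 members whose strain difference differed between neuronal types (blue, Cajal-Retzius cells included) and non-neuronal types (orange), above 2 marker genes of excitatory neurons. The median of the orange points is lower than that of the blue points for 12 members, and the orange points lie between 2.78 and 4.44 for Sv2c.

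Promoter accessibility differed between the strains for few members. In Exc-DG, the type with the most nuclei, 78 peaks overlapped 500 bp around the start of 76 members, and 4 of them (5.13%) were called by edgeR, against 7.32% of the 13820 such peaks of all protein-coding genes and 5.97% of all 297387 peaks (both directions). The Unc13a peak was higher in D2, 38.8 and 38.7 CPM in B6 and 48.0 and 45.2 CPM in D2 (log2 fold change 0.26 ± 0.07, adjusted p = 0.00264), and was not called without B6 library 2 (adjusted p = 0.103) or B6 library 3 (0.0876), while its RNA in Exc-DG was not called (log2 fold change 0.04 ± 0.07, adjusted p = 0.724). The Doc2b peak was lower, 29.9 and 29.8 CPM in B6 and 22.8 and 22.6 CPM in D2 (-0.40 ± 0.08, adjusted p = 1.93e-05), and so was its RNA (34.4 and 38.2 CPM in B6 and 26.4 and 31.6 CPM in D2, log2 fold change -0.33 ± 0.12, adjusted p = 0.0395), a call that was lost at adjusted p = 0.165 with B6 library 3 left out and 0.338 with D2 library 2 left out. The Vamp9 peak was lower as well (-0.38 ± 0.08, adjusted p = 0.000312), but not without B6 library 3 (0.0715). The fourth was that of Vamp7, on the scaffold without D2 counts.

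The Sv2c promoter peak was not called between the strains in Exc-DG. Its peak in Exc-DG stood at 38.8 and 41.7 CPM in B6 and 35.2 and 37.1 CPM in D2 (log2 fold change -0.15 ± 0.07, adjusted p = 0.217), and of 27 peaks within the gene 2 were called higher and 10 lower in D2 there. In Exc-CA3, where the RNA was 22.5 times as high in D2, the promoter peak held 13.5 and 13.8 CPM in B6 and 13.3 and 12.3 CPM in D2, and in Exc-CA1-Galntl6 16.1 and 15.9 CPM in B6 and 15.2 and 18.6 CPM in D2. In NN-ODC the peak is low and held 3.06 and 2.45 CPM in B6 and 9.64 and 15.3 CPM in D2. These values rest on a few counts in each library, too few to compare the strains. Peaks were tested in Exc-DG only, and in Exc-CA1-Galntl6 the ranges of the strains overlap. Across types the peak was highest in Inh-Lamp5, 52.0 and 50.0 CPM in B6 and 62.2 and 61.8 CPM in D2, as the RNA was. Syt17 and Rab3c had promoter peaks in Exc-DG at adjusted p = 0.947 and 0.822 (log2 fold changes -0.03 and 0.05) beside their lower RNA.

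Between excitatory and inhibitory types, promoter accessibility and RNA had a Pearson correlation of 0.52 and a Spearman correlation of 0.45 over 74 members. The genes share libraries and are not independent, and no test was made. Of the 12 members past 2-fold in RNA, 10 had a peak ratio of the same sign. Most members had a peak ratio below 0 whatever their RNA, so a shared sign on the inhibitory side is not read as a result. The share of shared signs over all members was not counted. Sv2b was at 1.27 (median log2 ratio, B6 1.04 and 1.34, D2 1.41 and 1.20), and its peak in Exc-DG held 4.64 and 3.07 CPM in B6 and 2.54 and 3.34 CPM in D2, against 23.0 and 25.3 CPM in B6 and 21.4 and 26.1 CPM in D2 in Exc-CA1-Fras1. On the inhibitory side Rims3 was at -1.40, Cplx3 at -1.18, Rab3b at -1.05 and Syt6 at -0.87. The exceptions were Syt7 (-0.17) and Syt17, whose promoter was more open in inhibitory types (B6 -1.02 and -0.86, D2 -1.23 and -1.26) although its RNA was higher in excitatory types.

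A list of 59 other genes of the vesicle cycle, such as endocytic adaptors, dynamins and synucleins, was read beside the members. In 888 pairs of its 58 tested genes 40 (4.50%) were higher and 136 (15.3%) lower in D2 (median log2 fold change -0.06), against 7.26% and 9.40% of all pairs. The chaperone Hspa8, which uncoats clathrin vesicles, was lower in 17 of 17 types (median -1.12), with 61.8 and 77.1 CPM in B6 and 26.6 and 34.5 CPM in D2 in Exc-DG (log2 fold change -1.19 ± 0.13, adjusted p = 4.18e-06). Apba2 (Mint2), an adaptor protein of the presynapse, was lower in 14, with 400.5 and 393 CPM in B6 and 225 and 209 CPM in D2 in Exc-ENT (log2 fold change -0.87 ± 0.08, adjusted p = 7.06e-11), and Picalm, a clathrin adaptor that sorts VAMPs, in 11, with 65.9 and 67.9 CPM in B6 and 47.0 and 46.0 CPM in D2 in Exc-DG (log2 fold change -0.52 ± 0.09, adjusted p = 0.000187). The clathrin light chain Clta was higher in 7 types, with 38.3 and 36.7 CPM in B6 and 51.3 and 61.8 CPM in D2 in Exc-CA1-Fras1 (log2 fold change 0.58 ± 0.14, adjusted p = 0.00178), Scamp5 in 5 and Sncb in 4.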

How the data were processed

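Nuclei of the ventral hippocampus were profiled by snRNA-seq and snATAC-seq. The authors aligned reads with Cell Ranger 6.0.2 and Cell Ranger ATAC 2.0.0. For B6 the reference was mm10, and for D2 it was mm10 with the single-base variants of D2 put in. The part of this difference of reference in the strain values was not tested. The authors also removed doublets, named cell types and deposited whole-number counts per gene or peak, summed by library and cell type. The 16 methylation samples of the series were not used. Column names carry library numbers 2 and 3 while the labels carry replicates 1 and 2, so columns were matched to samples by strain only. CPM between cell types were scaled by TMM over all 68 columns, and those between strains by TMM within a type. Strain tests used edgeR 4.0.16 in R 4.3.3 (quasi-likelihood, filterByExpr for genes, at least 10 counts for peaks, Benjamini-Hochberg). With 2 libraries a side, the smallest p of an exact permutation test is 0.33. DESeq2 1.42.0, other scalings, filters and left-out libraries were alternatives, and the methods were tested on simulated data. Genes named were core members, the most and least specific members of each role, those past the class limits, and those called in most types or with the largest changes at a mean of at least 5 CPM. Stx16, Stx18, Syt11, Vamp9 and the genes named only for having no call were added after their values were seen. Values of 2 members are counted in the totals and not reported here. Members and lists were chosen with earlier results of these data known.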

Additional observations from a re-analysis of the deposited data

Results flagged for a closer look

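The strain difference of 14 members differed between classes of cell types, by the interaction test of the edgeR fit over all columns. Values are the mean D2 over B6 log2 fold change of the first class minus that of the second. Between excitatory and inhibitory types this was so for Syt10, at -1.47 (adjusted p = 0.0169). Between neuronal and non-neuronal types it was so for Rims1 at 0.78 (adjusted p = 2.58e-07), Stxbp5l at 0.78 (adjusted p = 4.26e-07) and Syt1 at 0.54 (adjusted p = 5.87e-06), which passed in all 4 fits that left out 1 library. Snap25 stood at 0.58 (adjusted p = 6.38e-06), Cplx2 at 0.87 (adjusted p = 0.000694), Syt16 at 0.78 (adjusted p = 0.000763) and Sv2c at -1.19 (adjusted p = 0.00269), and these 4 were not called without B6 library 3. The others were Syt5 at 0.70 (adjusted p = 0.00524), Doc2b at 1.82 (adjusted p = 0.00796), Stx3 at 0.65 (adjusted p = 0.0205), Syt11 at 0.29 (adjusted p = 0.0251), Sv2b at 0.50 (adjusted p = 0.0369) and Syt7 at 0.46 (adjusted p = 0.0431). Over the left-out fits the adjusted p ran from 0.0141 to 0.356 for Syt5, 0.0185 to 1 for Doc2b, 0.00611 to 0.752 for Stx3, 0.171 to 0.4 for Syt11, 0.0632 to 0.261 for Sv2b and 0.0839 to 0.438 for Syt7. The columns of 1 library are not independent samples, and the part of neuronal RNA in the non-neuronal columns was not tested.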

How the results depend on the processing

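Of the 68 pairs higher and 134 lower in D2, DESeq2 called 28 and 65, a limit of 0.5 on the absolute log2 fold change left 34 and 89, and the non-neuronal types alone, a choice made after seeing the data, gave 12 and 43. Leaving out 1 library gave 40 to 61 higher, the lowest without D2 library 3, and 96 to 130 lower. Of 191 called pairs of members other than Vamp7, 59 kept direction and call in every planned fit, and none reversed. Of the 4 promoter peaks DESeq2 called 2 and left-out libraries gave 2 to 5, the lowest without B6 library 3. A 1.5-fold limit gave 12 members higher in excitatory types, against 6. Without 1 library, 6 to 9 members were higher in excitatory, 6 (in each such fit) in inhibitory, 32 to 35 in neuronal and 6 to 7 in non-neuronal types. For the difference between excitatory and inhibitory types DESeq2 called 4, no filter 2 and left-out libraries 0 to 2, against 1, and between neuronal and non-neuronal types left-out libraries gave 5 to 9, against 13, the lowest without B6 library 3. The cause of these shifts was not tested. Library numbers did not pair the libraries: deviations of same-numbered libraries correlated at -0.154 to 0.0617 over RNA types and 0.0504 in snATAC-seq. A replicate block gave 65 higher and 137 lower pairs, 4 peaks, and ended 17 of the 191 calls, and the crossed pairing, added after seeing the data, gave 80 and 160. Depth differed between types, and in CR-CR, with the fewest counts, 1 of 45 member pairs was called.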
